A study of Mus musculus with 12 samples.

Results

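The livers of 3 A10 mice were compared with those of 3 A0 mice, over the 12474 of 17871 genes (69.8%) with at least 10 reads in 3 or more of these 6 libraries. The A10 mice received alginate oligosaccharides (AOS), short sugar chains cut from the alginate of brown seaweed, at 10 mg/kg by daily gavage for 5 weeks, and the A0 mice received water. All were male ICR mice, 3 weeks old at the start, of an outbred stock, so animals of a group are not genetically identical. Busulfan, an alkylating drug, was given once at 40 mg/kg to the mice of 2 further groups of 3, BA0 (busulfan) and BA10 (busulfan, then AOS). Their livers serve as a reference, and they also enter the fit of 12 libraries that gave the p-values. The labels give the strain as "IRC mouse" and the tissue as "Cells", while the series title names liver. The comparison asks what AOS changed in livers that had not been injured. The p-values of that fit set a difference against the spread between libraries of a group, estimated over all 12 libraries. Of the 5397 genes left out, 776 had no read in the 6 libraries. At the threshold, 120 genes had exactly 10 reads in their third-highest library and 151 had 9.

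Hepatocytes make up most of the liver and most of its RNA. Between their plates run sinusoids, capillaries lined by fenestrated endothelial cells that clear waste from the blood by scavenger receptors, with Kupffer cells (resident macrophages) inside and vitamin A-storing stellate cells behind them. RNA of whole liver mixes all of these, so fewer cells of a type and less RNA per cell cannot be told apart. The tissue held the transcripts of liver. The 9 hepatocyte markers summed to 75546 to 91427 CPM (counts scaled to a common library size) in A0 and 83309 to 105521 CPM in A10.

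The livers of A10 differed from those of A0 in many small steps. In the fit of edgeR over the 12 libraries, 299 genes (2.40% of those tested) were higher and 199 (1.60%) were lower at an adjusted p under 0.05, and 3177 genes (25.5%) had an unadjusted p under 0.05. These counts were not stable: without any single library other than A0 replicate 3, those of the busulfan groups included, 1 to 9 genes were higher and 0 to 1 lower, without A0 replicate 3 they were 1054 and 708, and in a fit of the 6 A0 and A10 libraries alone 2 and 0. The 3 values of A10 lay above the 3 of A0 for 14.6% of all genes and below them for 11.8%, and they did so for each of the 498 genes called. The median change of the called genes was 0.59 for those higher and -0.52 for those lower (log2 fold change, A10 over A0), and 42 and 9 of them exceeded 1 in size. The median over all genes was 0.03. The adjusted p-values stood close to the threshold (medians of 0.0428 and 0.0417), with 2 genes of lung epithelium, Scgb1a1 and Sftpc, well below the rest.

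A0 replicates 1 and 2 stood apart from the other 10 libraries. Depth was similar throughout, at 16439508 to 18174590 counts a library. Gene length and GC content together explained 23.5% and 15% of the variation in the log counts of A0 replicates 1 and 2 around the mean library, and 0.297% to 6.47% in the others. Their scaling factors (TMM) were 0.855 and 0.881, against 0.970 to 1.08 in the others, and the major urinary protein genes took 21.2% and 18% of their reads. The groups A0 and A10 did not overlap in scaling factor or in the slopes on length and GC, where the exact permutation test of 3 against 3 cannot give less than p = 0.1. With 8 such properties compared, the adjusted p of these 3 was 0.267.

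**Figure D1:**
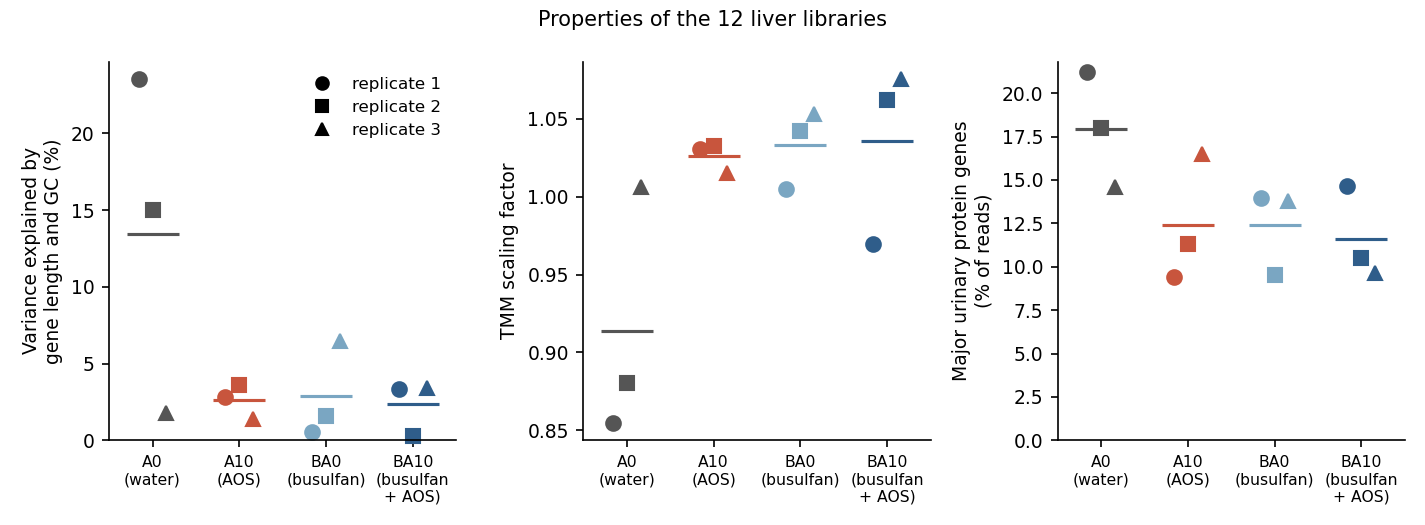
Variance explained by gene length and GC content (percent), TMM scaling factor, and share of reads on major urinary protein genes (percent) in the 12 libraries. Each symbol is 1 mouse and lines are group means. A0 replicates 1 and 2 lie apart from the other 10 libraries in the first 2 measures (23.5% and 15%, 0.855 and 0.881).

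Long genes of low GC content were higher in A10 and short genes of high GC content were lower. The median exon length was 8470 bases for the genes that rose, 2120 bases for those that fell and 4488 bases for all genes tested. The median GC content was 44.1%, 54.6% and 49.5%. Among the 1188 shortest genes the median log2 fold change was -0.23, and 82 of them fell while 6 rose. Among the 1187 longest it was 0.26, and 100 rose while 1 fell. Once the trends of each library over length and GC content were removed, 8 genes of the 11868 with both values (0.0674%) were higher and 3 (0.0253%) were lower, and 2017 (17.0%) had an unadjusted p under 0.05. These 11 genes were Scgb1a1, Sftpc, Kdr, Clec4g, Cavin2, Rasgrp3, Hpgd and Trim25, which rose, and Taf10, Lmf1 and Snd1, which fell. Of these, Scgb1a1, Sftpc and Trim25 reached the read threshold only through A10, the group where they are high.

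**Figure D2:**
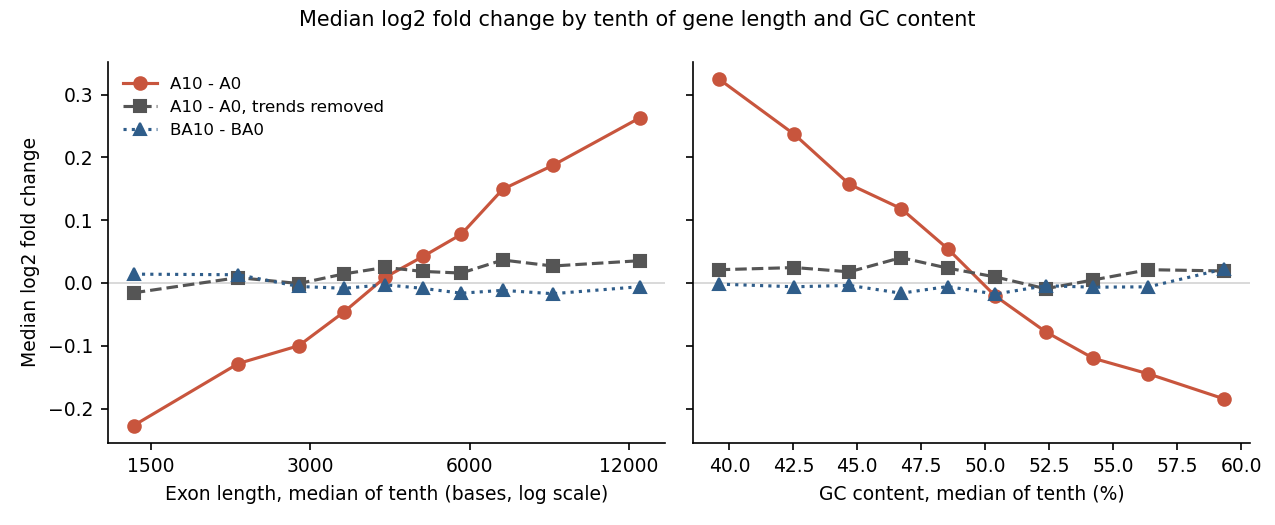
Median log2 fold change in 10 equal bins of the tested genes ordered by exon length (left, bases, log axis) and by GC content (right, percent). Circles show A10 against A0, squares the same after removal of the trends, and triangles BA10 against BA0. The median for A10 against A0 ran from -0.23 in the bin of shortest genes to 0.26 in that of the longest, while that for BA10 against BA0 stayed between -0.02 and 0.02.

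Genes of the sinusoidal endothelium were higher in A10. Of 15 endothelial markers, 6 rose (background of 2.40%) and none fell, 11 had A10 values wholly above A0 (14.6% of all genes did), and 14 had a positive change, with a median log2 fold change of 0.72 (0.75 after removal of the trends). Over the list, the summed level was 197 to 199 CPM in the 3 A0 livers, and 292, 268 and 384 CPM in A10 replicates 1 to 3. The median exon length (4048 bases) and GC content (51.5%) of these 15 genes lay near those of all genes. The 6 that rose ran from 2462 bases (Clec4g) to 10288 bases (Stab1), and Kdr (9030 bases) and Stab2 (8757 bases) were long too.

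Kdr, which encodes the receptor VEGFR2 through which VEGF acts on endothelial cells, was at 21.3, 20.3 and 22.9 CPM in A0 and at 42.4, 34.6 and 42.1 CPM in A10. The groups lay apart, and the log2 fold change was 0.88 (SE 0.13, edgeR, adjusted p = 0.0315; 0.0486 without the trends). Clec4g, which encodes a C-type lectin of the sinusoidal cell surface, was at 27.0, 26.2 and 24.7 CPM in A0 and at 32.7, 36.4 and 40.3 CPM in A10 (log2 fold change 0.49, SE 0.10, edgeR, adjusted p = 0.0390). It passed the test again without the trends (adjusted p = 0.0486). The scavenger receptor Stab1, also called stabilin-1, was at 17.1, 17.1 and 16.9 CPM in A0 and at 28.2, 23.5 and 32.6 CPM in A10. Its A0 values were nearly the same in all 3 mice. Its partner Stab2, which binds hyaluronan, was at 25, 30.1 and 23 CPM in A0 and at 40.8, 35.7 and 48.6 CPM in A10. The log2 fold changes were 0.72 and 0.68 (edgeR, adjusted p = 0.0445 and 0.0429; 0.0884 and 0.0980 without the trends).

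Tek, which encodes the angiopoietin receptor TIE2, was at 5.93, 7.22 and 6.59 CPM in A0 and at 12.1, 9.46 and 15.6 CPM in A10. Bmp2, a ligand by which sinusoidal cells signal to hepatocytes to set hepcidin, was at 5.66, 5.27 and 8.29 CPM in A0 and at 11, 10.8 and 14.9 CPM in A10. Both were about 0.9 higher on the log2 scale (0.91 and 0.93, edgeR, adjusted p = 0.0403 and 0.0390). Cavin2, a coat protein of caveolae, was at 4.06, 5.15 and 7.08 CPM in A0 and at 14.6, 10.2 and 12.6 CPM in A10 (log2 fold change 1.20, SE 0.19), with an adjusted p of 0.0372 before and 0.0486 after removal of the trends. F8, coagulation factor VIII, which liver endothelial cells make, was at 5.60, 8.09 and 9.44 CPM in A0 and at 20.5, 14.4 and 23.2 CPM in A10 (log2 fold change 1.32, edgeR, adjusted p = 0.0390). F8, Stab1, Stab2 and the endothelial markers that did not pass were picked for naming with their values in view. Cd36, a fatty acid and lipoprotein receptor of capillaries and macrophages, rose too, from 4.26, 3.70 and 5.32 CPM to 13.8, 7.82 and 12.3 CPM.

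Not every vascular gene was higher. Vwf, von Willebrand factor of larger vessels, and Eng, the TGF-beta coreceptor endoglin, did not pass the test, and Vwf had the only negative change of the list (-0.11). Lyve1 and Rspo3 did not pass either, and their groups overlapped (edgeR, adjusted p = 0.180 and 0.611). Ly6a, Pecam1, Cdh5, Oit3 and Wnt2 were higher with the groups apart, but did not pass (adjusted p = 0.0557 to 0.113). In the livers of BA0 and BA10 the list summed to 342 to 452 CPM and 356 to 444 CPM, above every A0 liver. Its median change between BA10 and BA0 was 0.20, with no gene called. Of the 9 calls named in this part, 3 were kept without the trends, those of Kdr, Clec4g and Cavin2. Stab1, Stab2, Tek, Bmp2, F8 and Cd36 lost theirs (edgeR, adjusted p up to 0.103). Each call named here was lost in at least 9 of the 12 fits with 1 library left out, those without a busulfan library included (adjusted p = 0.0513 to 0.155). All of them were kept without A0 replicate 3, Kdr and Cavin2 also without A10 replicate 2, and Kdr also without BA0 replicate 3. The direction was kept: the median of the list was 0.56 to 0.84 with 1 library left out, and 0.72 without both A0 replicates that stood apart.

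**Figure D3:**
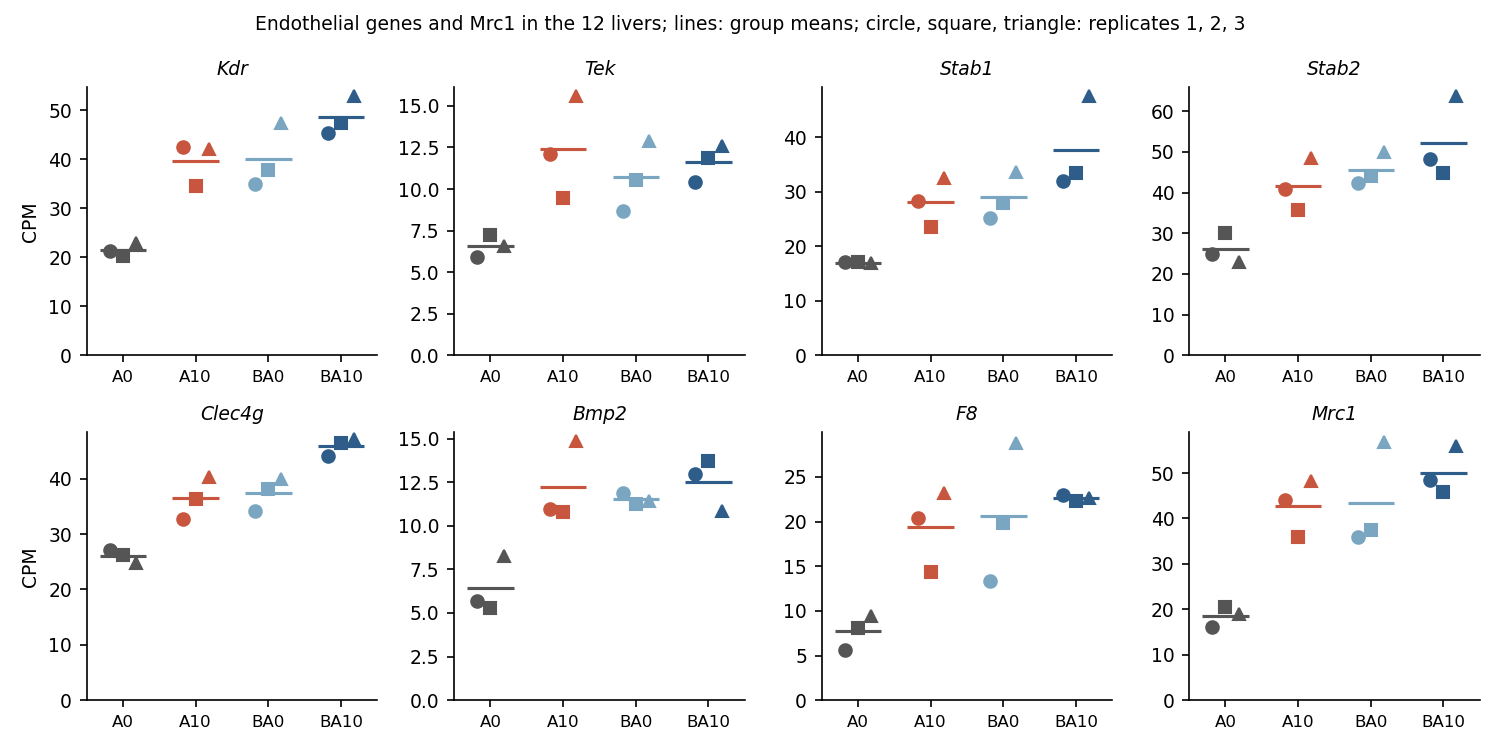
Levels (CPM) of 7 endothelial genes and of the mannose receptor Mrc1 in the 12 livers. Symbols are mice, lines are group means. For each of the 8 genes the 3 A0 livers lie below the 3 A10 livers, as for Kdr at 20.3 to 22.9 CPM against 34.6 to 42.4 CPM.

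Among 18 tested Kupffer cell and macrophage markers 2 rose (background of 2.40%) and none fell, with a median log2 fold change of 0.41. Mrc1, the mannose receptor of macrophages and of sinusoidal endothelium, was at 16.1, 20.5 and 18.9 CPM in A0 and at 44.0, 35.9 and 48.3 CPM in A10, and its log2 fold change was 1.21 (SE 0.18, edgeR, adjusted p = 0.0350; 0.0674 without the trends). Slc40a1, which encodes ferroportin, the exporter of cellular iron, was at 140 to 160 CPM in A0 and at 203 to 243 CPM in A10 (log2 fold change 0.56, adjusted p = 0.0429). Removal of the trends took its change down to 0.26.

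Among 14 tested stellate cell and matrix genes 1 rose (background of 2.40%). This was Lrat, the enzyme that esterifies retinol for storage, at 6.60, 7.28 and 8.59 CPM in A0 and at 13.4, 12.6 and 12 CPM in A10 (log2 fold change 0.76, SE 0.16, edgeR, adjusted p = 0.0403). Hgf, the hepatocyte growth factor that stellate and endothelial cells secrete, was among the largest increases, from 1.60, 3.58 and 4.24 CPM to 7.01, 7.29 and 10.8 CPM. Hhip, a decoy receptor that binds Hedgehog ligands, was at 0.80, 1.38 and 1.39 CPM in A0 and at 3.42, 3.41 and 3.47 CPM in A10. Akap12, a scaffold for protein kinase A, rose from 1.47, 1.88 and 2.24 CPM to 5.50, 3.82 and 5.27 CPM. The log2 fold changes of these 3 were 1.40, 1.52 and 1.38 (edgeR, adjusted p = 0.0469, 0.0458 and 0.0390). None of these genes passed without the trends (adjusted p = 0.0674 to 0.356). With 1 library left out their calls were kept without A0 replicate 3, and in no other fit but for Mrc1, which was also called without A10 replicate 2 or BA0 replicate 3.

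The metallothioneins Mt1 and Mt2, small cysteine-rich proteins that bind zinc and copper, rose in all 3 A10 livers. Their transcription is driven by the zinc sensor MTF1 through metal response elements, and also by glucocorticoids. Mt1 (gene 17748, mm10, chromosome 8, 94179082 to 94180327, plus strand) was at 6.0, 3.33 and 5.14 CPM in A0 and at 40.3, 44.7 and 50.1 CPM in A10. Mt2 (gene 17750, chromosome 8, 94172664 to 94173568, plus strand), which lies 5513 bases before it, was at 2.53, 0.816 and 1.94 CPM in A0 and at 20.2, 28.4 and 15.6 CPM in A10. All 3 A10 livers lay far above all A0 livers. The log2 fold changes were 3.22 (SE 0.77) for Mt1 and 3.60 (SE 0.91) for Mt2, with adjusted p = 0.0451 and 0.0497 (edgeR).

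The bases before both starts are shown, since the 2 neighbours moved together. They are the 250 bases before the start that RefSeq gives for each gene (GRCm38.p6, chr8:94178839-94179088 and chr8:94172368-94172617, plus strand). The gene coordinates above are those of GENCODE, and the starts differ. Against them the Mt1 window runs past the start, and the Mt2 window ends before it. Capitals mark the metal response element core, TGCACNC or TGCGCNC on either strand.
Mt1: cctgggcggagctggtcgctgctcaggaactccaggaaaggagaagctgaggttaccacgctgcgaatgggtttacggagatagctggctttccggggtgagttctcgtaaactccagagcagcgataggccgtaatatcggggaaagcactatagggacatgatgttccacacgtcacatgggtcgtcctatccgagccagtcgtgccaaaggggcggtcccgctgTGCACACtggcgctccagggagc
Mt2: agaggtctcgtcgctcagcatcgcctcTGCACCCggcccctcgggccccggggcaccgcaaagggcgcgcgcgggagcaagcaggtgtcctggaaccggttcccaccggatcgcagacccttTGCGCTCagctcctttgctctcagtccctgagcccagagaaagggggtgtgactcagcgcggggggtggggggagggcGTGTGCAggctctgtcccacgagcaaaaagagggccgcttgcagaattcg
The core occurs at 1 place before Mt1 and at 3 places before Mt2. In the 50 bases that follow the start, not shown, 2 further matches lie for Mt1 and 1 for Mt2. Windows of 250 bases before the start held at least 1 match for 33.8% of the 9555 tested genes with such a window, and at least 3 for 2.46%. Over all 27025 genes with a window the shares were 23.8% and 1.46%.

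The levels of Mt1 and Mt2 varied widely among the mice that had received busulfan. The BA0 livers held 8.05, 32 and 3.74 CPM of Mt1, and the BA10 livers 26.3, 11.4 and 3.70 CPM. Some of these livers were thus near A0, and none reached A10 in Mt1. In Mt2, BA0 replicate 2, a liver without AOS, stood at 15.52 CPM, next to the lowest A10 liver at 15.57 CPM. Among the 18 genes of the list of glucocorticoid targets and metallothioneins, Mt1 and Mt2 were the only 2 that passed (background of 2.40%). The median of the list was 0.26. The calls were lost on removal of the trends (adjusted p = 0.0980 for both, log2 fold changes of 3.46 and 3.96) and without most single libraries (adjusted p = 0.0529 to 0.176). Mt1 was called without A0 replicate 3 and in no other such fit, and Mt2 in none.

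Traces of lung transcripts separated A0 from all other livers. Scgb1a1, the secretoglobin of airway club cells, had 0, 1 and 2 reads in the 3 A0 libraries, and stood at 3.65, 5.99 and 4.75 CPM in A10. With 3 reads in A0 and 247 in A10 the ratio was 75.8 (exact 95% interval of counting error 25.6 to 370.1). It was called in the fit over all genes (edgeR, adjusted p = 0.000145), in each of the 12 fits with 1 library left out, and after removal of the trends (adjusted p = 7.91e-05). Sftpc, surfactant protein C of alveolar type II cells, had no read in A0 and 1.39, 1.65 and 2.14 CPM in A10, at least 27.3-fold higher when A0 is set to a floor of 3 reads over the group (edgeR, adjusted p = 0.0134). Its call was lost in 2 of the 12 fits with 1 library left out, those without A0 replicate 1 or 2 (adjusted p = 0.0554 to 0.0575). Both genes reached the threshold of 10 reads in 3 libraries only through A10, the group where they are high. Their p-values therefore do not test the difference apart from that selection. BA0 and BA10 held both transcripts too, with Scgb1a1 at 4.08 to 5.58 CPM, within the range of A10, and Sftpc at 0.674 to 2.03 CPM, from below that range.

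Not all genes of lung were raised. Of 8 lung epithelium genes 3 reached the read threshold, and the list summed to 1.07 to 1.63 CPM in A0 and to 6.84 to 10.9 CPM in A10. Sftpa1 was at 0.400, 0.502 and 0.847 CPM in A0 and at 1.16, 1.29 and 0.984 CPM in A10 and did not pass (adjusted p = 0.0998). Ager, the receptor of alveolar type I cells, had 15 reads in A0 and 17 in A10. How lung transcripts came to be in liver libraries was not tested. Of the pancreas acinar genes 2 reached the read threshold and neither passed. Amy2a5, pancreatic amylase, had 72 reads in A0 and 1 in A10, while BA0 replicate 2 alone stood at 137 CPM (adjusted p = 0.348). Cela1, an elastase, was at 21.7, 21.8 and 22.7 CPM in A0 and at 17.8, 16.7 and 13.6 CPM in A10 (adjusted p = 0.173).

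Trim25, an E3 ubiquitin ligase that activates the viral RNA sensor RIG-I, was high in 2 of the 3 A10 livers. It lies on chromosome 11 (gene 217069, mm10, 88999376 to 89020293, plus strand). It stood at 0.200, 0.502 and 0.605 CPM in A0, and at 39.1, 38.2 and 2.43 CPM in A10, with 0.349 to 0.817 CPM in the 6 livers of BA0 and BA10. Replicates 1 and 2 thus carried a level that no other liver approached, and replicate 3 was still above every A0 liver. The log2 fold change was 5.89 (SE 0.91, edgeR, adjusted p = 0.0350), and 5.87 without the trends (adjusted p = 0.0486). With 3, 8 and 10 reads in A0, Trim25 reached the read threshold only through A10, the group where it is high. Its p-values therefore do not test the difference apart from that selection.

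A neighbour had the same pattern. Scpep1, a serine carboxypeptidase gene 43910 bases before Trim25 on the minus strand (88924020 to 88955465), had no read in A0, and stood at 13.7, 10.8 and 0.289 CPM in A10. It fell short of the threshold of 10 reads in 3 libraries and so was not tested. With 425 reads in A10, it was at least 130-fold higher at the floor of 3 reads. Coil, which lies between these genes, was at 2.12 to 3.00 CPM in A0 and at 2.38 to 3.06 CPM in A10. Dgke, 14885 bases beyond Trim25, had 2.26, 1.29 and 0.116 CPM in A10 against 0.400 to 0.753 CPM in A0. Scpep1, Coil and Dgke were singled out after the values of Trim25 were seen. The sources used here name no litters or genotypes of the mice. The call of Trim25 was kept in 2 of the 12 fits with a library left out, those without A0 replicate 3 or A10 replicate 3.

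**Figure D4:**
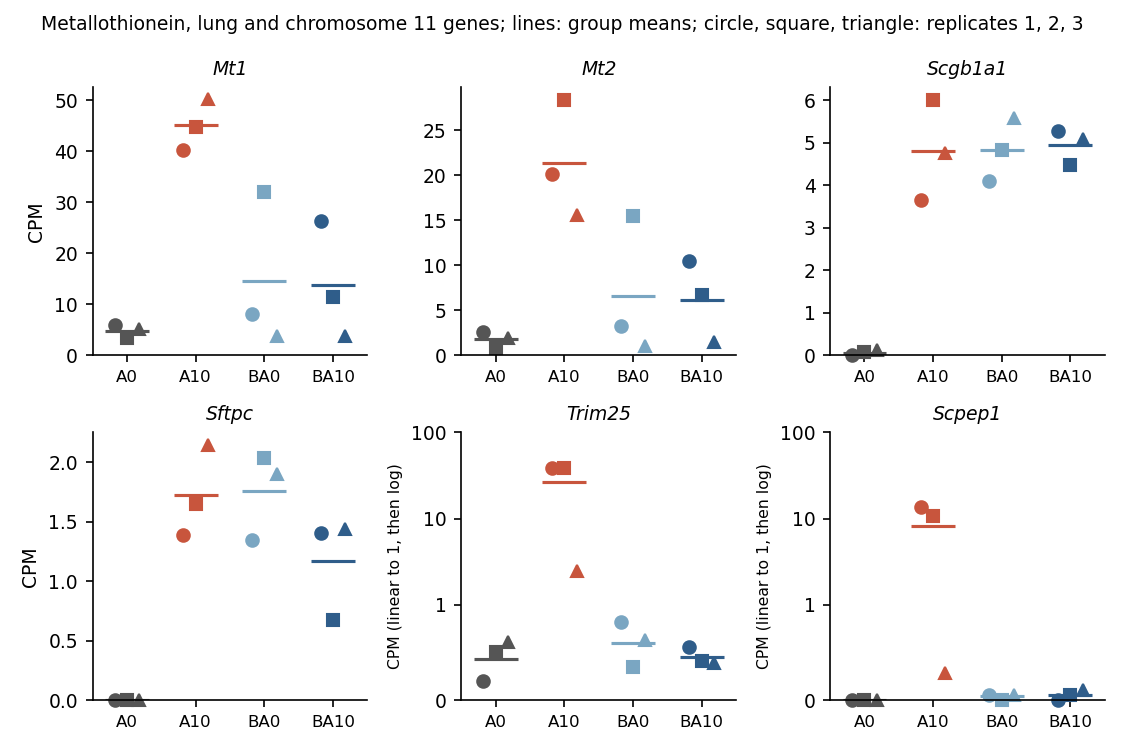
Levels (CPM) of Mt1, Mt2, Scgb1a1, Sftpc, Trim25 and Scpep1 in the 12 livers. Symbols are mice, lines are group means, and the axes of Trim25 and Scpep1 are linear up to 1 CPM and logarithmic above. Mt1 and Mt2 were high in all 3 A10 livers, while Trim25 and Scpep1 were high in 2 of them (39.1 and 38.2 CPM for Trim25).

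Nuclear genes of the mitochondrial respiratory chain were lower in A10. The chain passes electrons through complexes I to IV and drives the ATP synthase. Of 75 subunit genes tested, 21 fell and none rose (background of 1.60%), 50 had A10 values wholly below A0 (11.8% of all genes did), and the median log2 fold change was -0.34. The calls included 14 subunits of complex I (genes whose names begin with Nduf), with cytochrome c oxidase, complex III and ATP synthase subunits as the others. These genes are short, with a median exon length of 1756 bases, and without the trends the median was -0.19 and no member was called.

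Cox5b, a subunit of cytochrome c oxidase, was at 151, 152 and 137 CPM in A0 and at 109, 102 and 95.9 CPM in A10 (log2 fold change -0.52, SE 0.08, edgeR, adjusted p = 0.0372). It came nearest to the threshold without the trends (adjusted p = 0.0579). Atp5g2, which encodes the membrane ring subunit c of ATP synthase, was at 63.2, 69.5 and 70.4 CPM in A0 and at 46.6, 41.7 and 36.2 CPM in A10 (log2 fold change -0.71, SE 0.11, edgeR, adjusted p = 0.0350). Ndufs8, an iron-sulfur subunit of complex I, was at 47.0 to 49.97 CPM in A0 and at 32.2 to 35.5 CPM in A10. Cox6a1, a further oxidase subunit, was at 153 to 201 CPM in A0 and at 108 to 123 CPM in A10. In each of these genes all 3 A10 livers lay below all 3 A0 livers. In BA0 and BA10 the list summed to 6721 to 7359 CPM and to 7216 to 7620 CPM, against 7873 to 9082 CPM in A0 and 6405 to 7627 CPM in A10. Its median change between BA10 and BA0 was 0.07. Without A0 replicate 3 the number called was 41, and without any other single library, of A0, A10, BA0 or BA10, it was 0, while the median of the list stayed between -0.41 and -0.29 over the 12 fits.

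Many genes of this chain are activated by the nuclear respiratory factor NRF1, whose core site reads GCGCATGC. Of the 4 subunit genes with the smallest p, Atp5g2 and Cox6a1 have this core in the 250 bases before the RefSeq start (GRCm38.p6, chr15:102671048-102671297 and chr5:115348959-115349208, both minus strand), and these windows are shown with the core in capitals. The core was searched on both strands, and the overlapping matches of each window form a single run. The Atp5g2 window lies inside the gene as GENCODE gives it (102662864 to 102672352).
Atp5g2: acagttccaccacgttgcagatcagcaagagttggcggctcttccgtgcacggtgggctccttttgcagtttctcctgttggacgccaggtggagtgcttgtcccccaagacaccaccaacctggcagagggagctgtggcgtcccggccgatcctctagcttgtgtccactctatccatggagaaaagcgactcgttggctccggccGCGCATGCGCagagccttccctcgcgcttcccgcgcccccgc
Cox6a1: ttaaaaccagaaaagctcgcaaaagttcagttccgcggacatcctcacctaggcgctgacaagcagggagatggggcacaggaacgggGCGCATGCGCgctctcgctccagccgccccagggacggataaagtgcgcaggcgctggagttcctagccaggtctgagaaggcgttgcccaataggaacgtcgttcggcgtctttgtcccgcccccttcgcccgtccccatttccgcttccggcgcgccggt
The NRF1 core occurred before 4 of 20 of the called subunit genes with a window, before 8 of 62 of all those tested (12.9%), and before 478 of 9555 tested genes of any kind (5.00%). Among all genes called, its share was 6.99% for those higher and 6.71% for those lower. A second core, CCGGAAG of the transcription factor GABP, was searched too. It occurred before 5 of 20, 12 of 62 (19.4%) and 1485 of 9555 (15.5%) of the same sets. These are shares of letters found, and binding was not measured.

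Other short genes fell alongside. Of 81 cytosolic ribosomal protein genes, 7 fell (background of 1.60%) and none rose, with a median log2 fold change of -0.24, and of -0.07 without the trends. Rpl27, of the large subunit, was at 91.1, 99.0 and 82.6 CPM in A0 and at 66.4, 64.4 and 62.5 CPM in A10 (edgeR, adjusted p = 0.0390). Rps26, of the small subunit, was at 168 to 175 CPM in A0 and at 119 to 128 CPM in A10. None of the 81 was called without the trends. Romo1, a regulator of reactive oxygen at the inner mitochondrial membrane with 747 bases of exon, went from 17.3, 20.2 and 16.5 CPM to 11.1, 10.3 and 9.03 CPM (log2 fold change -0.83, SE 0.12, edgeR, adjusted p = 0.0315; 0.145 without the trends).

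The genes that fell and kept their call without the trends were Taf10, Lmf1 and Snd1. Taf10, a subunit of TFIID and of the SAGA coactivator, was at 36.4, 34.8 and 27.9 CPM in A0 and at 19.9, 18.9 and 19.0 CPM in A10 (log2 fold change -0.77, SE 0.11, edgeR, adjusted p = 0.0315; 0.0314 without the trends). Lmf1, which matures lipoprotein lipase and hepatic lipase in the endoplasmic reticulum, was at 48.4, 48.9 and 43.3 CPM in A0 and at 34.4, 36.3 and 32 CPM in A10. Snd1, a nuclease of the RNA-induced silencing complex, was at 103 to 118 CPM in A0 and at 82.3 to 90.8 CPM in A10. The 3 A10 livers of each gene lay close together and below every A0 liver. Among the genes that rose and kept their call, Hpgd, the enzyme that inactivates prostaglandins, was at 62.4, 62.9 and 82.5 CPM in A0 and at 152, 119 and 116 CPM in A10. Rasgrp3, a Ras activator, was at 3.40, 3.45 and 3.93 CPM in A0 and at 6.61, 6.58 and 6.94 CPM in A10. The log2 fold change of both was 0.90 (edgeR, adjusted p = 0.0376 and 0.0315). With 1 library left out, these 5 were called without A0 replicate 3, Taf10 and Rasgrp3 also without BA0 replicate 3, and none in any other fit.

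Of the lists of hepatocyte function, several held 1 or 2 calls, against backgrounds of 2.40% for genes higher and 1.60% for genes lower. The apolipoprotein Apob, which forms VLDL and has an exon length of 13934 bases, was at 4263, 5177 and 5964 CPM in A0 and at 7634, 7902 and 8534 CPM in A10 (log2 fold change 0.64, SE 0.14, edgeR, adjusted p = 0.0403). It was the only 1 of 9 hepatocyte markers to pass, and with the trends removed its change was 0.35 (adjusted p = 0.141). Of 25 bile acid genes 2 rose: Abcc3, which exports bile acid conjugates to blood, from 114, 120 and 189 CPM to 311, 267 and 247 CPM, and Abcb11, the bile salt export pump, from 301 to 337 CPM to 410 to 453 CPM. Of 37 genes of fatty acid oxidation and Ppara targets 2 rose, Acadm, the medium-chain acyl-CoA dehydrogenase, and Ppara itself (log2 fold changes 0.63 and 0.58, edgeR, adjusted p = 0.0429 and 0.0447). Of 37 complement and coagulation genes the clotting factor F5 and prekallikrein Klkb1 rose (0.48 and 0.50).

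In endoplasmic reticulum stress, 2 of 27 genes rose and 2 fell (backgrounds of 2.40% and 1.60%). Atf6, a sensor of misfolded protein, was at 36.2, 31.3 and 33.9 CPM in A0 and at 50.1, 51.2 and 73.6 CPM in A10. Xbp1, a transcription factor of the same response, went the other way, from 299, 222 and 198 CPM to 130, 169 and 125 CPM (log2 fold changes 0.79 and -0.76, edgeR, adjusted p = 0.0390 and 0.0428). The chaperone Dnajb9 rose and the translocon subunit Sec61b fell. Of 45 glutathione transferases and antioxidant enzymes, the regulator Nfe2l2 (NRF2) rose, from 37.8, 47.6 and 51.5 CPM to 64.0, 69.1 and 66.0 CPM, and peroxiredoxin Prdx5 fell. Of 33 genes of fat synthesis Cd36 rose and Agpat2, an acyltransferase of triglyceride synthesis, fell. In the cell cycle list, cyclin D2 (Ccnd2) rose and the replication factor Mcm10 fell, from 62.7, 70.9 and 64.2 CPM to 35.3, 41.0 and 34.7 CPM. The core clock gene Clock rose by 0.68 on the log2 scale, alone among 20 clock genes, and its exon length was 13727 bases. The 29 cytochromes P450 of families 1 to 3 had a single call, Cyp2d40, which fell. None of these hepatocyte, stress and cell cycle genes kept its call without the trends (adjusted p = 0.0807 to 0.345). With 1 library left out they were called without A0 replicate 3 and in no other fit, and Dnajb9 in none.

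The major urinary proteins, pheromone carriers made by male liver under pulsed growth hormone, had 1 call among 21 genes tested (background of 1.60%). All 21 had a negative change (median log2 fold change -0.89, and -1.0 without the trends), and 5 had A10 values wholly below A0 (11.8% of all genes did). Summed over the family, A0 held 248558, 204306 and 144998 CPM and A10 held 91438, 109563 and 162629 CPM. A10 replicate 3 thus lay above A0 replicate 3, and the groups overlapped. Mup2 fell, from 8280, 7988 and 4388 CPM to 1692, 2097 and 4046 CPM (log2 fold change -1.40, SE 0.35, edgeR, adjusted p = 0.0474; 0.110 without the trends). Its 2 highest values were those of A0 replicates 1 and 2, and its call was lost in 11 of the 12 fits with 1 library left out, and kept without A0 replicate 3. Mup8 was at 57.0, 1859 and 1451 CPM in A0 and at 11.6, 17.0 and 30.0 CPM in A10 (adjusted p = 0.0721). These genes are near-identical copies, and the sources used here do not say how reads were divided among them. Other genes with a growth hormone pattern did not pass, among them Elovl3, a fatty acid elongase, at 694, 699 and 507 CPM in A0 and at 74.9, 108 and 340 CPM in A10 (adjusted p = 0.0586), and Serpina12, the adipokine vaspin, at 67.9 to 99.2 CPM in A0 and at 22.0 to 40.1 CPM in A10 (adjusted p = 0.0508).

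Interferon-stimulated genes, which cells switch on against viruses, had a positive median without a call. Of 47 tested, 41 had a positive change and none passed, with a median of 0.69. A10 replicate 3 stood above the other A0 and A10 livers in most of them. Ifit2 was at 1.60, 1.76 and 1.63 CPM in A0 and at 2.55, 2.29 and 17.1 CPM in A10 (adjusted p = 0.111), and Ifi44 at 1.91, 2.06 and 18.3 CPM in A10 against 1.13 to 2.51 CPM in A0 (adjusted p = 0.290). A liver without AOS, BA0 replicate 2, held still more Ifi44, at 47.6 CPM. Without A10 replicate 3 the median turned to -0.19. Of the 47 genes, 4 had A10 values wholly above A0 (14.6% of all genes did). Ifit2 was among these, as were Iigp1, an immunity-related GTPase, and the class I gene H2-D1. Iigp1 was at 374 to 657 CPM in A10 against 204 to 305 CPM in A0. H2-D1 was at 380 to 444 CPM against 203 to 336 CPM, and neither passed (edgeR, adjusted p = 0.107 and 0.0935).

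Of 48 genes of cytokines, chemokines and their receptors 1 rose, near the background of 2.40%. This was Il6ra, the IL-6 receptor, from 14.7, 17.2 and 14.0 CPM to 27.3, 22.9 and 22.5 CPM (log2 fold change 0.67, SE 0.14, edgeR, adjusted p = 0.0390, and 0.103 without the trends). It was, with Mrc1, 1 of 2 calls among the 18 tested transcripts of those that the study also followed by q-RT-PCR or as protein. Il22ra1, the IL-22 receptor, at 6.17 to 7.46 CPM in A0 and 9.27 to 14.7 CPM in A10, and Tlr4, the lipopolysaccharide receptor, at 1.32 to 1.87 CPM and 2.59 to 5.03 CPM, did not pass (adjusted p = 0.0533 and 0.0651). The acute-phase list had 2 calls of 25 (background of 2.40%), which were Mt1 and Mt2. Saa1, serum amyloid A, was at 219, 46.8 and 42.2 CPM in A0 and at 28.3, 19.1 and 38.4 CPM in A10 (adjusted p = 0.0699), high in A0 replicate 1. No gene passed among 27 p53 targets, 26 genes of cholesterol synthesis (median log2 fold change -0.30), 33 of glucose and glycogen, or 45 of amino acid breakdown and the urea cycle.

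Markers of other blood and tissue cells were scarce. T and NK cell markers summed to 3.21 to 9.10 CPM in A0 and 3.07 to 5.21 CPM in A10, B cell markers to 2.48 to 4.89 and 1.22 to 3.17 CPM, and neutrophil markers to 4.24 to 7.26 and 2.66 to 3.71 CPM, with Ly6g at 0 reads in all 6 libraries. Of 9, 7 and 8 genes in these lists, 1, 2 and 2 reached the read threshold and none passed. Red cell genes summed to 592 to 735 CPM in A0 and 352 to 818 CPM in A10. Muscle genes summed to 0.0579 to 0.529 CPM, and of 6 adipose genes Plin1, Lep and Retn had no read.

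**Figure D5:**
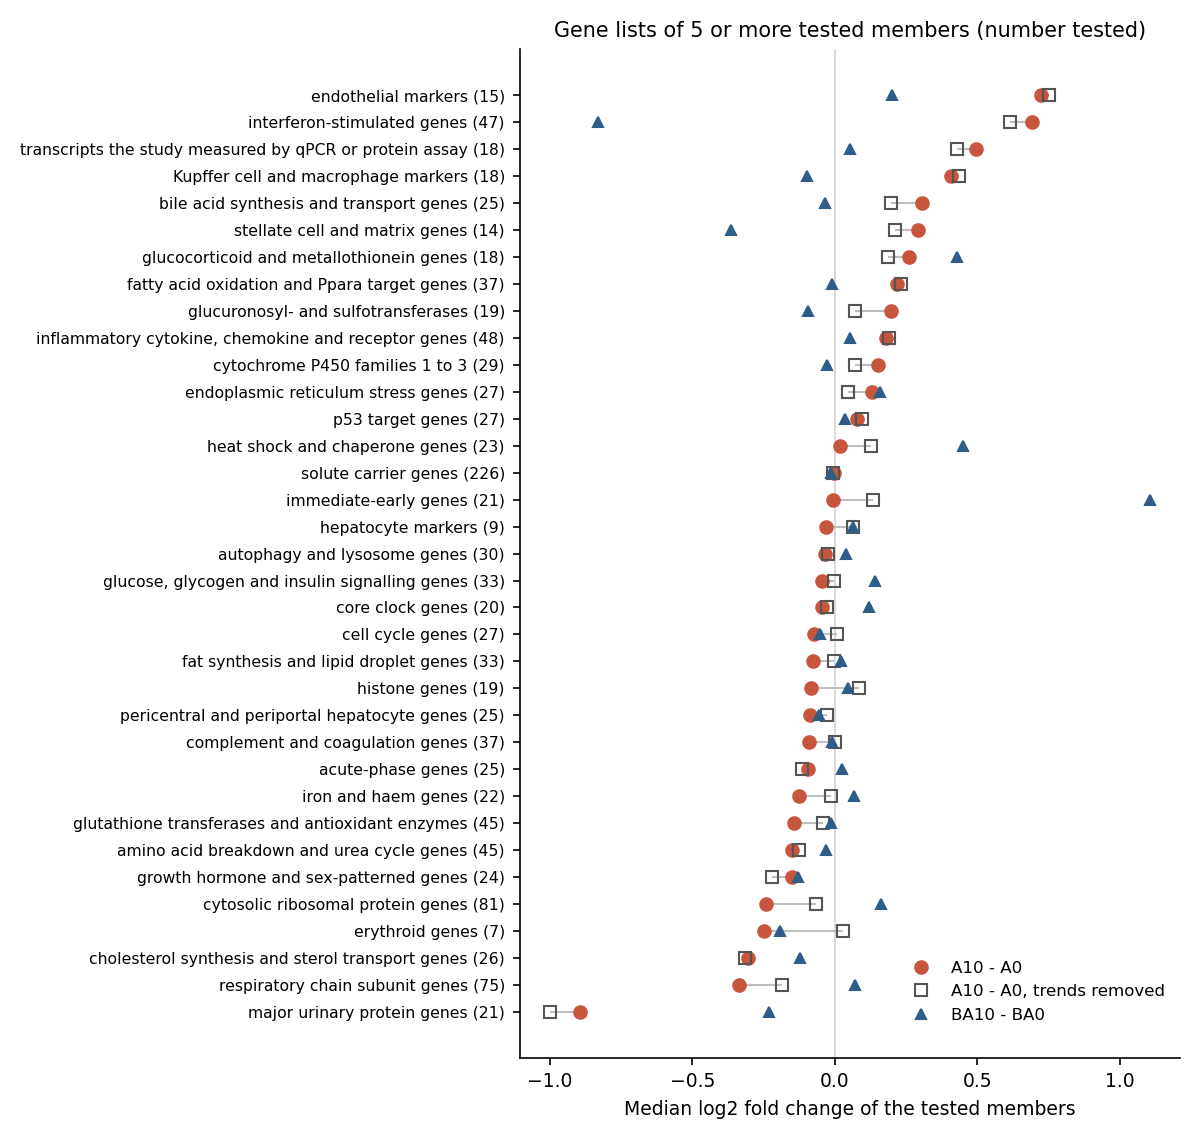
Median log2 fold change of each gene list with 5 or more tested members. Filled circles show A10 against A0, open squares the same after removal of length and GC trends, and triangles BA10 against BA0. The endothelial list stayed at 0.72 and 0.75, whereas the respiratory chain moved from -0.34 to -0.19 and the ribosomal list from -0.24 to -0.07.

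The other genes with the largest changes were of mixed kinds. Among the genes that rose, Scgb1a1, Sftpc, Trim25, Mt2 and Mt1 changed most, and next came Csprs (log2 fold change 2.76), a gene model that the files name BGIG10090_47558 (2.60), Rassf4, a Ras-association protein (2.54), Zbtb38, a zinc finger protein that binds methylated DNA (2.22), and Gm33350 (2.14). Rassf4 varied within both groups, at 8.99, 3.01 and 15 CPM in A0 and at 17.1, 81.7 and 58.5 CPM in A10. The fibrocystin gene Pkhd1, of bile duct cilia, rose from 3.39 to 3.93 CPM to 5.79 to 11.6 CPM. The largest decreases were in 2 gene models, BGIG10090_48015 (-4.73), which stood at 253 CPM in A0 replicate 2 and under 10 CPM in every other A0 and A10 liver, and BGIG10090_40786 (-3.98). After these came Ildr2, an immunoglobulin-like membrane protein of the endoplasmic reticulum, at 10.4, 9.16 and 9.56 CPM in A0 and at 3.82, 2.29 and 1.39 CPM in A10 (log2 fold change -1.95, SE 0.40, edgeR, adjusted p = 0.0390; 0.0761 without the trends). Next were Mup2, Rpp38 (-1.18), the retinol-binding protein Rbp7 (-1.16), Alkbh6 (-1.06), Adamtsl2 (-1.06), Lrg1 (-0.94), carbonic anhydrase 2 (Car2, -0.92), Elp5 (-0.91) and Hes6 (-0.81), a partner of Hes1. None of these kept its call without the trends, and Csprs, Gm33350 and the models had no length for that fit. Gm4724 rose as well (1.42).

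Immediate-early genes respond within minutes to growth factors and stress. Of 21 tested, Klf6 rose (background of 2.40%) and Jund and Ier2 fell (background of 1.60%). Of the 21, 7 had A10 values wholly below A0 (11.8% of all genes did) and 2 wholly above (14.6% did). The median log2 fold change was -0.01. The list summed to 225 to 256 CPM in A0 and to 164 to 214 CPM in A10. Jund, an AP-1 subunit, was at 36.8, 39.0 and 33.9 CPM in A0 and at 25.5, 24.3 and 20.7 CPM in A10 (log2 fold change -0.64, edgeR, adjusted p = 0.0390). Ier2 was at 19.9, 16.8 and 17.1 CPM in A0 and at 12.4, 12.3 and 10.4 CPM in A10 (-0.62, adjusted p = 0.0390). Neither passed without the trends (adjusted p = 0.248 and 0.269), and both calls were kept with 1 library left out only where that was A0 replicate 3.

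The effect of AOS was then set beside its effect after busulfan, in which no library is shared. BA10 differed from BA0 in 7 genes (0.0561% of those tested), and the effect of AOS without busulfan differed from that with busulfan in 7 genes (0.0561%). Of the 299 genes higher in A10 than in A0, 168 (56.2%) had a positive change between BA10 and BA0, with a median of 0.02, and of the 199 lower genes 135 (67.8%) did, with a median of 0.04. Of all genes tested 48.6% did. Across genes the log2 fold changes of both comparisons had a Spearman correlation of 0.01, given as a description, since genes are not independent replicates. Of the 7 genes whose effects differed, 4 were immediate-early genes, and Scgb1a1, Sftpc and Cd163 were the others. Egr1 was at 6.66, 4.83 and 3.15 CPM in A0, at 2.84, 2.41 and 9.26 CPM in A10, and at 251, 126 and 179 CPM in BA10 against 1.11, 2.21 and 2.76 CPM in BA0, so that only BA10 stood apart. Junb, an AP-1 subunit, was at 11.9 to 12.7 CPM in A0 and 5.74 to 9.90 CPM in A10, and at 2.98 to 5.64 CPM in BA0 and 19.1 to 32 CPM in BA10. Ier2 and Jund, lower in A10 than in A0, were higher in BA10 than in BA0, with Ier2 at 20.4 to 22.5 CPM against 6.73 to 8.19 CPM. Cd163, the haemoglobin scavenger receptor of macrophages, was at 4.42 to 6.27 CPM in A0 and 9.90 to 12.2 CPM in A10, and at 4.77 to 11.1 CPM in BA0 and 0.796 to 2.21 CPM in BA10.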

How the data were processed

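Poly(A) RNA of 12 livers was sequenced, 3 in each of A0, A10, BA0 and BA10, and groups follow the sample labels. The authors aligned the reads to mm10 and deposited estimated counts per gene, of which 78.6% to 80.3% per library were whole (tolerance 1e-06), and RPKM values, which are reads scaled to gene length and library size. The columns also held 8 group means, which were not used. The estimated counts as deposited were rounded to whole numbers, and library totals ran from 16439508 to 18174590. Depth limits genes of few reads, and intervals cover counting error only.

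Genes with at least 10 reads in 3 of the 6 A0 and A10 libraries were tested with edgeR 4.0.16 in R 4.3.3, by quasi-likelihood with TMM scaling in 1 fit of 12 libraries (residual degrees of freedom 8), with Benjamini-Hochberg adjustment and a threshold of 0.05. CPM values are scaled by TMM. "Without the trends" means that splines of each library on exon length and GC content (3 inner knots, GENCODE M21) entered as offsets. Alternatives used DESeq2 1.42.0 and limma 3.58.1. The scripts were tested on simulated data. Python 3.11.15 with scipy 1.17.1 gave exact tests.

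The members and the 46 gene lists were chosen with earlier results of these data known. Named genes were the 15 called in each direction with the largest change, groups apart and a mean of at least 1 CPM, those called without the trends, those called whichever A0 or A10 library was left out, up to 4 of smallest p per list, the transcripts the study assayed, and those whose effect of AOS differed with busulfan. Fits that removed the trends and left out a library were added after seeing the data.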

Additional observations from a re-analysis of the deposited data

Results flagged for a closer look

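The effect of AOS differed with and without busulfan in 7 genes, tested as the log2 fold change of A10 over A0 minus that of BA10 over BA0 (edgeR, 12 libraries). The difference was -6.51 for Egr1 (adjusted p = 0.00507), -3.24 for Junb (adjusted p = 0.00507), -2.15 for Ier2 (adjusted p = 0.000370) and -1.10 for Jund (adjusted p = 0.0284), the immediate-early genes that stood higher in BA10 than in BA0. It was 6.06 for Scgb1a1 (adjusted p = 0.000615) and 8.47 for Sftpc (adjusted p = 0.0102). Of the 4 groups, only A0 had 3 reads or fewer of Scgb1a1 and none of Sftpc. The value for Sftpc thus depends on the prior count and is no bound. Both genes reached the read threshold only through A10. Their p-values do not test the difference apart from that selection, nor do alternatives on the same genes. It was 3.59 for Cd163 (adjusted p = 0.0216). The calls of Ier2 and Scgb1a1 were kept in all 34 and 33 alternatives that gave a value, that of Egr1 in 33 of 34, Junb in 32 of 34, Sftpc in 31 of 33, Cd163 in 21 of 33 and Jund in 14 of 34.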

How the results depend on the processing

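The counts of calls depended on the setting. Against 299 higher and 199 lower genes (60.0% higher), upper-quartile scaling gave 172 and 348 (33.1% higher), library totals 756 and 50 (93.8%), DESeq2 696 and 613, and limma on log2(RPKM + 0.1) or log2(RPKM + 1) 995 and 85 or 944 and 83. DESeq2 size factors gave 242 and 213 (53.2% higher). The median over all genes was 0.20 with library totals and -0.03 with the upper quartile, against 0.03. No filter on low counts gave 94 and 65, the 6 A0 and A10 libraries alone 2 and 0 (2365 genes at an unadjusted p under 0.05), removal of the trends 8 and 3, A0 replicates 1 and 2 left out together 1 and 0, and the study's thresholds (FDR 0.001, log2 fold change 1) 1 and 0. With 1 library left out the counts ran from 1 to 1054 higher and from 0 to 708 lower, the highest without A0 replicate 3. The other 11 such fits, the busulfan libraries included, gave 1 to 9 and 0 to 1. Without the trends and without A0 replicate 1, 2 or 3 they were 1 and 0, 1 and 0, and 65 and 116, and without A10 replicate 1, 2 or 3 they were 2 and 0, 1 and 0, and 3 and 0.

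The 7 differences of effect became 265 with DESeq2, 2 without A0 replicates 1 and 2, 2 at the study's thresholds, 11 without the trends and A0 replicate 3, 4 without the trends and A10 replicate 2, 12 without the trends and A10 replicate 3, and 5 to 277 with 1 library left out. BA10 against BA0, with 7 calls, had 35 with DESeq2, 11 with no filter, 4 with either RPKM scale, 2 at the study's thresholds, 12 without the trends and A10 replicate 3, and 4 to 12 with 1 library left out. Ifi44 turned to -0.15 without the trends and A10 replicate 3. The causes were not tested.

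Deviations of same-numbered libraries of different groups correlated at -0.08 to 0.14 (median 0.03) over 18 pairs. Those of the 36 other pairs correlated at -0.19 to 0.16 (median -0.01), and 5 of 12 libraries correlated best with their own number. The ranges overlap, so these values do not decide whether replicate numbers pair the livers. A replicate block gave 304 and 258 genes, and 13 and 5 without the trends.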
